A study of Mus musculus with 10 samples.

Results

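The clustered protocadherins are neuronal cell adhesion proteins encoded in 3 neighbouring gene clusters, alpha, beta and gamma, on mouse chromosome 18. Their promoters were followed in the developing retina by ChIP-Seq for H3K4me2, a histone modification of active and poised promoters, and H3K27me3, the mark set by Polycomb repressive complex 2 at repressed genes. Members were found by symbol, as every gene named Pcdha, Pcdhac, Pcdhb, Pcdhga, Pcdhgb or Pcdhgc with a number, and gave 58 of the 20045 symbols in the table (14 in the alpha, 22 in the beta and 22 in the gamma cluster). Each member had 1 entry. Whole retinas, at least 20 for each stage, were collected at 1 embryonic (E17.5) and 3 postnatal (PN1, PN7, PN15) ages, and each mark had 1 library per age. For these ages the methods describe wild type C57BL/6j mice. The strain label instead names Pde6b (rd1/rd1) mutants, in which rods degenerate, for every library, and the methods were followed. Sample names shorten the embryonic stage to E17. Antibody numbers in the labels are exchanged between the 2 marks relative to the methods, so library titles decided the mark. The H3K4me2 library of PN30 rd1 retinas and the anti-GFP control were not analysed here.

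In the alpha and gamma clusters each variable exon has its own promoter and is spliced to constant exons shared by the cluster, and a neuron uses a few of these promoters, chosen largely at random. The C-type isoforms at the end of the alpha cluster (Pcdhac1 and Pcdhac2) and of the gamma cluster (Pcdhgc3, Pcdhgc4 and Pcdhgc5) stand apart in sequence and are used by many neurons without that choice. The beta genes are single coding exons with no constant part. The proteins bind their own kind across cell membranes, and in the retina the gamma cluster is known for the self-avoidance of starburst amacrine dendrites and for the survival of inner retinal neurons. Choice of a variable promoter depends on CTCF and cohesin, and unused promoters carry DNA methylation.

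The deposited value of a gene is its normalized occupancy, a rounded sum of reads within 2.5 kb of its transcription start site (TSS) that was scaled to the reads of the library. Olfactory receptor genes, which are used in the nose, served as a low reference, and a promoter was counted as above the reference level when it exceeded the 95th percentile of 1044 olfactory receptor symbols in the same library. Values are given below in the order of the 4 stages. The reference level was 4, 8, 1 and 7 for H3K4me2 and 21, 22, 22.9 and 29 for H3K27me3. In 4 of the 8 libraries the value of 1 read was recovered from the rounded values (0.536 and 0.946 for H3K4me2 at E17.5 and PN1, 0.820 and 0.873 for H3K27me3 at PN1 and PN15). In the other 4 it was taken as 1, its upper limit there, which gives the widest intervals. Counting intervals are exact Poisson 95% intervals that cover counting error only, and 3 reads came to between 1.61 and 3 units of occupancy. With 1 library per mark and stage there was no replicate, and no difference between stages could be tested. The tissue labels were checked on marker genes: H3K4me2 at the photoreceptor regulator Crx was 20, 24, 21 and 158, and at Rpe65 of the pigment epithelium 1, 5, 0 and 2. Of 4 pigment epithelium markers 1, 1, 1 and 2 were above the reference level for H3K4me2, with Dct at 29, 21, 12 and 24 and Best1 at 8 at PN15. From E17.5 to PN15, cell type markers moved by the 2-fold rule defined below. H3K4me2 rose at the rod markers Sag, Pde6b, Nrl, Crx and Gnat1, by between 1.57 (Nrl) and 3.01 (Gnat1) on the log2 scale. H3K4me2 fell at 2 of 4 ganglion cell markers (Pou4f2 and Rbpms), at Rlbp1 of 2 Mueller glia markers and at Cdh5 of 4 endothelial markers. H3K27me3 fell at the rod markers Pde6b (30, 29, 20 and 10) and Gnat1 (43, 32, 35 and 15), at the ganglion cell marker Thy1 (263, 284, 194 and 86) and at Dct, and rose at Rlbp1 (8, 11, 55 and 136). The part of these changes in the values below was not tested.

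Most clustered protocadherin promoters had little of either mark. The median H3K4me2 of the 58 members was 5, 6, 1 and 7, against 41, 27, 24 and 42 over all symbols and 2, 3, 0 and 2 over the olfactory receptors. Above the reference level for H3K4me2 were 36, 11, 24 and 27 members, whereas of all symbols 77.2, 72, 72.1 and 70.9% were above it. The median H3K27me3 of the members was 12, 11, 9 and 13, close to the 11, 10, 9 and 10 of all symbols. Above the reference level for H3K27me3 were 12, 10, 4 and 3 members, against 24.3, 24.8, 24.3 and 19.3% of all symbols. A count of this kind turned on single units of occupancy for H3K4me2, where the 53 variable members (those other than the C-type isoforms) reached at most 10, 10, 4 and 22. In the plot of the members in chromosome order, the C-type isoforms stood out at the ends of the alpha and gamma clusters.

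**Figure D1:**
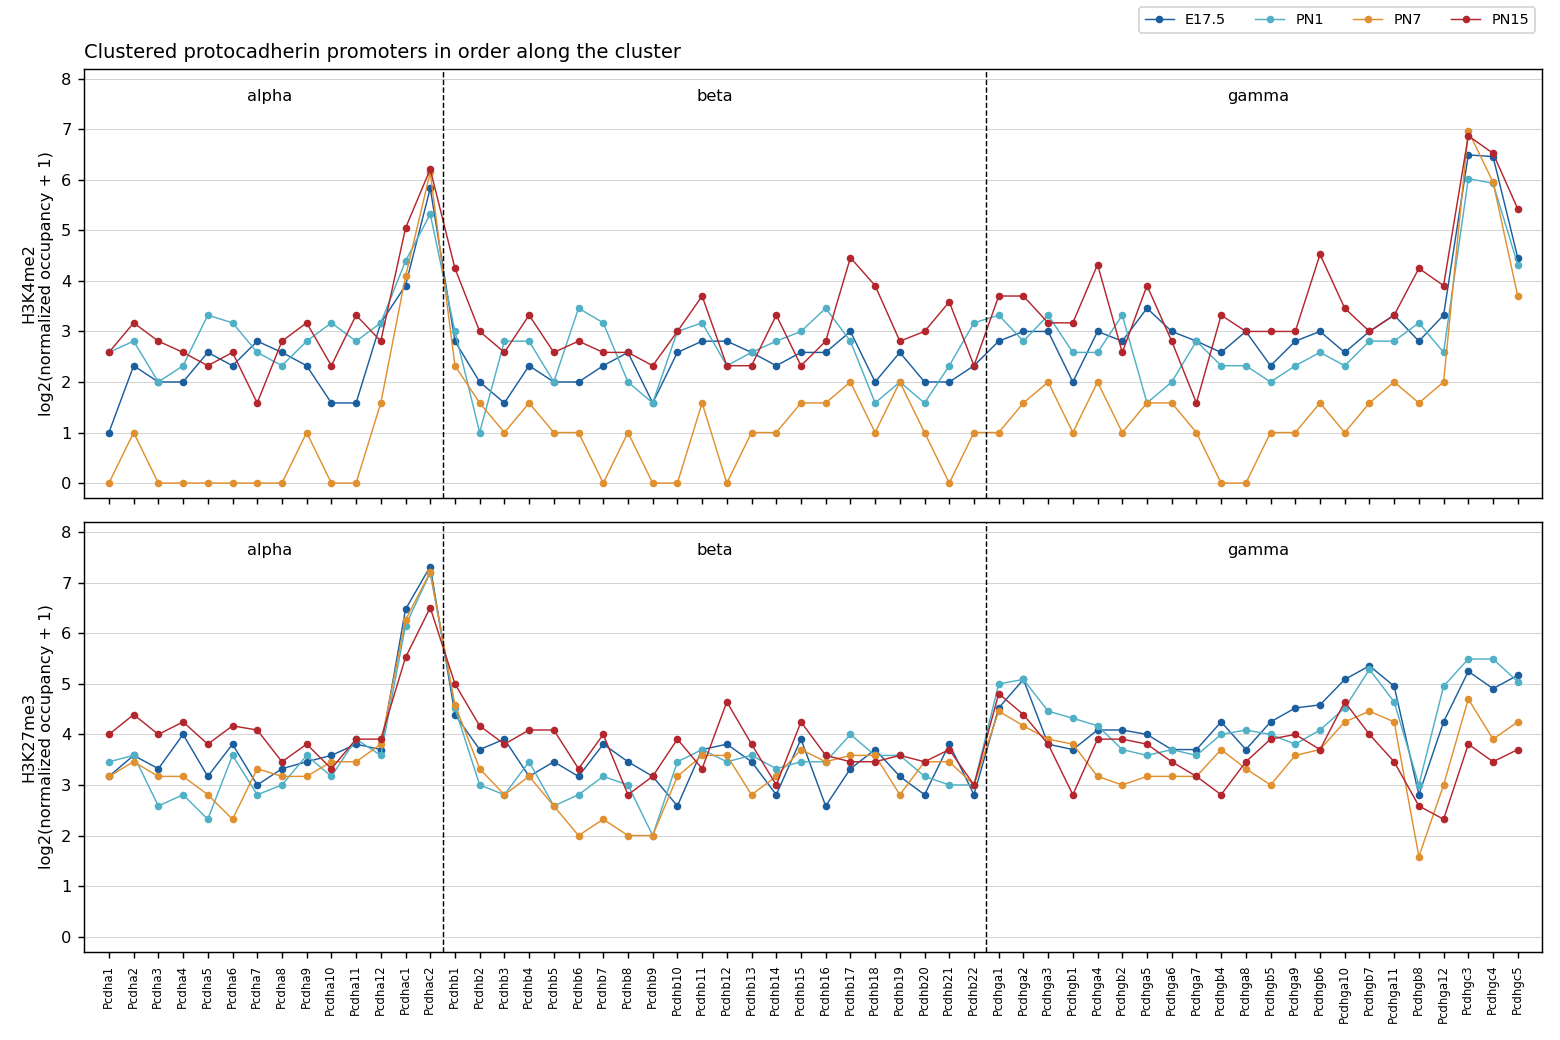
Normalized occupancy of H3K4me2 (top) and H3K27me3 (bottom) at the 58 members, as log2(occupancy + 1), in their order along the chromosome, with a coloured line for each of the 4 stages and dashed lines between the clusters. The C-type isoforms at the ends of the alpha and gamma clusters have the most H3K4me2, Pcdhac1 and Pcdhac2 have the most H3K27me3, and H3K4me2 at most variable members is lowest at PN7.

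The C-type isoforms of the alpha cluster carried both marks at all 4 stages. Pcdhac2, the alpha member with the most of each mark, had an H3K27me3 occupancy of 159, 146, 147 and 90. Its interval was 135 to 186 at the first stage and 73.4 to 109 at the last. Its H3K4me2 was 56, 39, 70 and 73. Pcdhac1 had an H3K27me3 occupancy of 88, 70, 76 and 45 and an H3K4me2 occupancy of 14, 20, 16 and 32. The intervals of both isoforms for H3K27me3 at E17.5 and PN15 were apart (70.6 to 108 and 33.9 to 59.5 for Pcdhac1), as they were, with the lower value at PN15, at 8 of the 58 members and 11% of all symbols. Among all symbols, Pcdhac2 was at percentile 94.4 at E17.5 and at 94.4 at PN15, and Pcdhac1 at 91.3 and 87.3. They were the only members above the reference level for both marks at every stage, as were 12.1% of all symbols.

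The C-type isoforms of the gamma cluster began with both marks and ended with H3K4me2 alone above the reference level. Pcdhgc3 had the most H3K4me2 of the gamma cluster (89, 64, 124 and 116), and its H3K27me3 was 37, 44, 25 and 13. Pcdhgc4, the isoform known for its part in neuronal survival, had an H3K4me2 occupancy of 87, 60, 61 and 91 and an H3K27me3 occupancy of 29, 44, 14 and 10. Pcdhgc5 had less H3K4me2 (21, 19, 12 and 42), and its H3K27me3 was 35, 32, 18 and 12. The H3K27me3 intervals at E17.5 and PN15 did not overlap for any of the 3, which are among those 8 members, for example 26.1 to 51 and 7.33 to 21.6 for Pcdhgc3. Among all symbols they went from percentile 84.1 to 58.2 for Pcdhgc3, from 80.9 to 45.7 for Pcdhgc4 and from 83.5 to 55.3 for Pcdhgc5.

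The 5 C-type isoforms had more H3K4me2 than the highest variable alpha or beta member in each of the 4 libraries, with the lower end of the counting interval above it as well. For H3K27me3 this held for 5, 5, 3 and 2 isoforms by value, and for 4, 5, 2 and 2 by the lower end. Their order in H3K4me2 at PN15 was Pcdhgc3 (116), Pcdhgc4 (91), Pcdhac2 (73), Pcdhgc5 (42) and Pcdhac1 (32), and each isoform's interval overlapped that of the next one in this order except between Pcdhac2 (57.2 to 91.8) and Pcdhgc5 (30.3 to 56.8). In a whole tissue, fewer cells with a mark and less of the mark per cell cannot be told apart, and neither can marks on the same or on different cells.

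**Figure D2:**
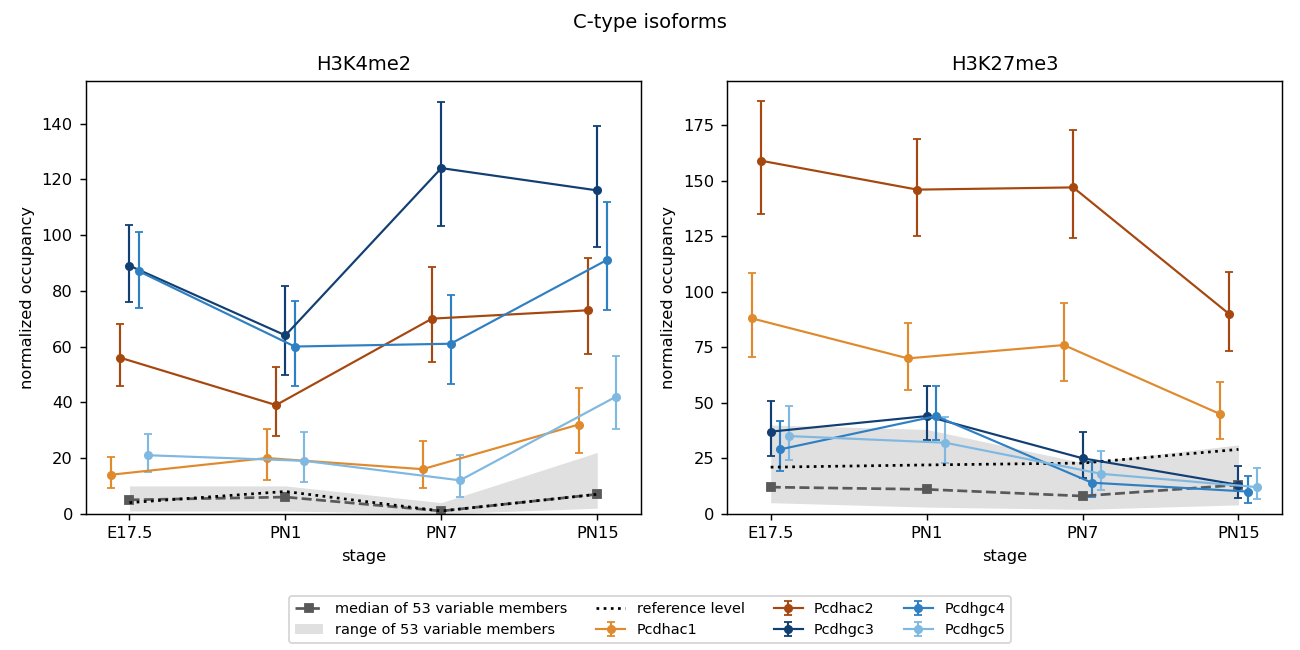
Normalized occupancy of the 5 C-type isoforms at the 4 stages for H3K4me2 (left) and H3K27me3 (right), with exact Poisson 95% counting intervals as bars. The grey band and dashed line give the range and median of the 53 variable members, and the dotted line the reference level. H3K27me3 at Pcdhgc3, Pcdhgc4 and Pcdhgc5 ends at 10 to 13, inside the range of the variable members, while Pcdhac1 and Pcdhac2 end at 45 and 90.

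The variable gamma promoters had more H3K27me3 than the variable alpha and beta ones, by their medians, at the first 3 stages. Their median was 18, 16, 11 and 13, against 10.5, 9, 8 and 14.5 for the 12 variable alpha members and 10, 9.5, 8 and 11.5 for the 22 beta members. Of the 19 variable gamma members, 7 at E17.5 and 5 at PN1 were higher than every variable alpha and beta member, and 0 at PN7 and PN15. The highest was Pcdhgb7 (40, 38, 21 and 15), followed at E17.5 by Pcdhga2 (33, 33, 17 and 20), Pcdhga10 (33, 22, 18 and 24) and Pcdhga11 (30, 24, 18 and 10). At E17.5 the lower ends of the intervals of these 4 members were above 20, the highest variable alpha or beta value in that library.

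Along the gamma cluster, H3K27me3 at E17.5 was 22 and 33 at the first members, Pcdhga1 (22, 31, 21 and 27) and Pcdhga2. It lay between 12 and 18 at the 10 members from Pcdhga3 to Pcdhgb5, and between 30 and 40 at Pcdhga10, Pcdhgb7 and Pcdhga11. These stretches were chosen after their values were seen and do not hold at PN15, when Pcdhga11 was at 10 and Pcdhgb5 at 14. Pcdhgb8, between Pcdhga11 and Pcdhga12, had the smallest H3K27me3 of the cluster (6, 7, 2 and 5). Pcdhga12 was 18, 30, 7 and 4. Between E17.5 and PN1 the Spearman correlation of H3K27me3 was 0.68 over the 19 variable gamma members, 0.54 over the 12 variable alpha and 0.11 over the 22 beta members. It was 0.73, 0.42 and 0.68 between PN1 and PN7, and 0.49, -0.07 and 0.37 between PN7 and PN15. Between E17.5 and PN15 it was 0.62, 0.25 and 0.53. The correlations are descriptions over promoters of the same libraries, some with overlapping windows.

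H3K4me2 of the variable gamma promoters had a median of 7, 5, 2 and 9. Above the reference level were 17, 3, 10 and 12 of the 19, and only Pcdhga3 was above it in all 4 libraries. The largest value was that of Pcdhgb6 at PN15 (22, after 7, 5 and 2 at the earlier stages). The smallest sums were those of Pcdhga7 (6, 6, 1 and 2) and Pcdhgb5 (4, 3, 1 and 7).

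The beta genes had little of either mark. Their H3K4me2 lay between 2 and 7 at E17.5 and between 4 and 21 at PN15, and the medians were 4, 6, 1 and 6. Pcdhb17 had the largest sum (7, 6, 3 and 21) and Pcdhb18 reached 14 at PN15 after 3, 2 and 1. For H3K27me3 the beta genes lay between 5 and 20 at E17.5 and between 6 and 31 at PN15. The highest was Pcdhb1, the first gene of the cluster, with 20, 22, 23 and 31, the only beta gene above the reference level for H3K27me3, at PN7 and PN15. Its H3K4me2 was 6, 7, 4 and 18. Pcdhb9 had the smallest sum of both marks, with an H3K4me2 of 2, 2, 0 and 4 and an H3K27me3 of 8, 3, 3 and 8.

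The 12 variable alpha promoters showed no member above the reference level for H3K27me3 in any library, and their values lay between 4 and 20. H3K4me2 had a median of 4, 6, 0 and 5.5, and 4, 1, 1 and 3 members were above the reference level. Pcdha1 had the smallest H3K4me2 of the cluster (1, 5, 0 and 5) and Pcdha5 the smallest H3K27me3 (8, 4, 6 and 13). At PN7, 9 of the 12 were at 0, which has a counting interval of up to 3.69. The entry Pcdha4-g, not a member by its name, equalled Pcdha4 in 7 of the 8 libraries.

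Both marks were above the reference level at 12, 6, 4 and 3 of the 58 members, against 22.1, 20.9, 21 and 15.2% of all symbols. At E17.5 these were the 5 C-type isoforms and 7 variable gamma members (Pcdhga1, Pcdhga2, Pcdhga9, Pcdhga10, Pcdhga11, Pcdhgb6 and Pcdhgb7). At PN15 they were Pcdhac1, Pcdhac2 and Pcdhb1. No variable alpha member had both marks above the reference level at any stage.

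**Figure D3:**
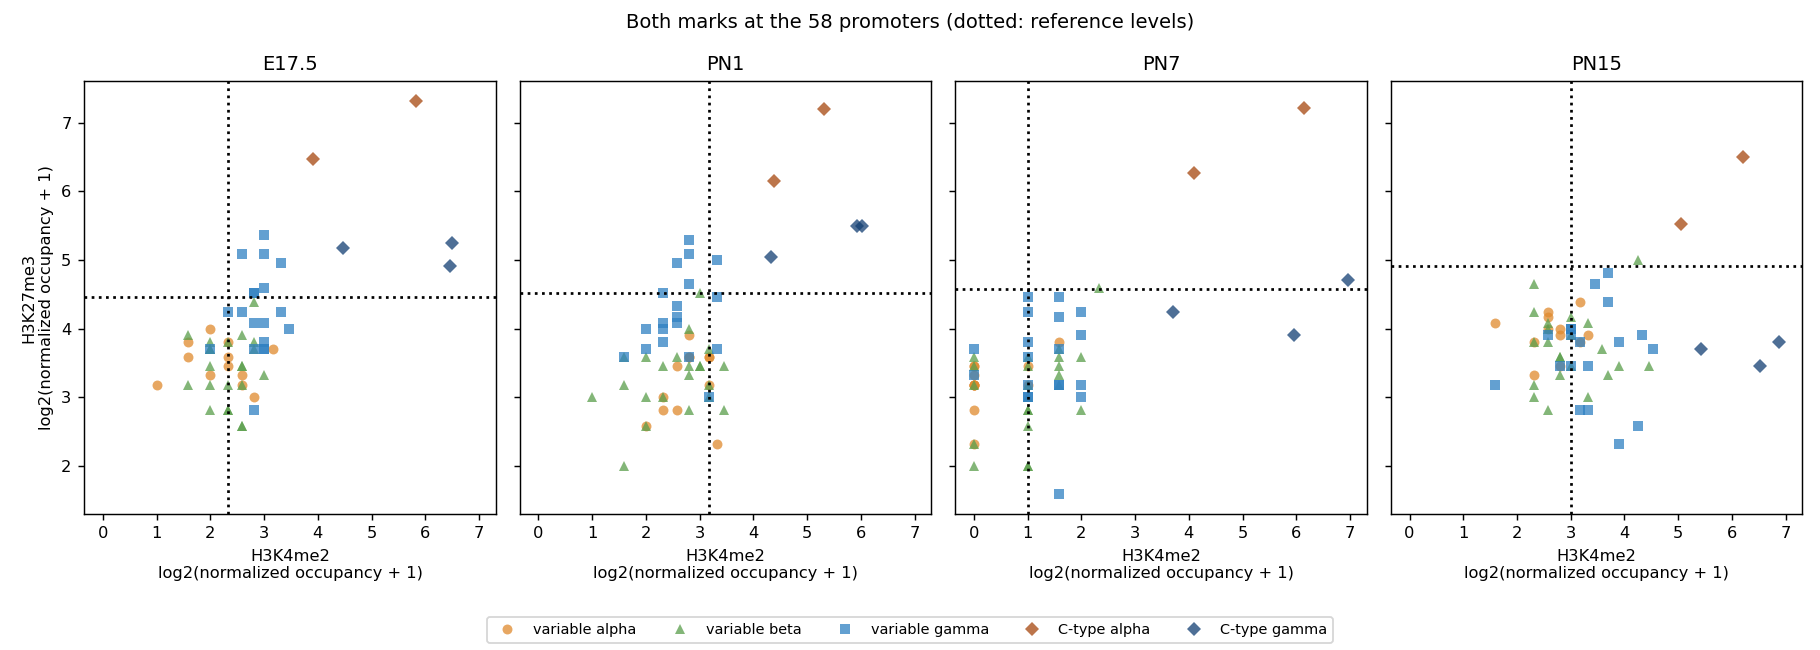
H3K27me3 (y axis) against H3K4me2 (x axis) at the 58 members, both as log2(normalized occupancy + 1), in a panel for each stage, with colours for variable and C-type members of each cluster and dotted lines at the reference levels. The upper right corner, above both levels, holds 12 members at E17.5 and 3 at PN15, and the C-type gamma isoforms move below the H3K27me3 line.

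Changes between stages were taken as log2((later + 1)/(earlier + 1)) minus the median of all symbols, and were called when they reached 2-fold with the higher value above its reference level. From E17.5 to PN15, H3K4me2 rose by this rule at 10 of the 58 members (17.2%) and fell at 2, against 3.26 and 8.84% of all symbols. The 10 were Pcdha11, Pcdhac1, Pcdhb1, Pcdhb17, Pcdhb18, Pcdhb21, Pcdhga4, Pcdhgb1, Pcdhgb6 and Pcdhgb8, with the smallest log2 change at Pcdhac1 (14 to 32) and the largest at Pcdhb18 (1.77), and the 2 were Pcdha7 (6 to 2) and Pcdhga7 (6 to 2). Counting intervals of the 2 stages were apart at 6 of the 10 (Pcdhac1, Pcdhb1, Pcdhb17, Pcdhb18, Pcdhgb6 and Pcdhgb8) and at neither of the 2. Calls with intervals apart made up 2.23% of all symbols for a rise and 4.85% for a fall, or 68.3 and 54.9% of the symbols called, so that the share of the members' rises with intervals apart was not above that of called symbols in general. At Pcdhb17 the interval went from 3.71 to 11.9 before birth to 13.0 to 32.1 at PN15. With a pseudocount of 5 in place of 1, 2 of the 58 had a rise and 0 a fall. The share of all symbols was not computed with that pseudocount, so these counts cannot be set against it.

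H3K27me3 from E17.5 to PN15 fell by the same rule at 5 members, all in the gamma cluster, and rose at 0. This was 8.62% of the members, close to the 8.72% of all symbols (2.89% rose). The log2 changes were -1.44, -1.45 and -1.47 at Pcdhgc3, Pcdhgc4 and Pcdhgc5, -1.49 at Pcdhga11 and -1.36 at Pcdhgb7, and the counting intervals of the 2 stages were apart at all 5, as they were at 91.8% of the symbols with a called fall (8% of all symbols). At Pcdhac1 (-0.95) and Pcdhac2 (-0.81) the change was below 2-fold. The scale matters here, since the 3106 symbols above the reference level in all 4 H3K27me3 libraries had a median of 97 at E17.5 and 66 at PN15. With the libraries scaled on these symbols, the changes at the C-type gamma isoforms were -0.92, -0.93 and -0.95, and those at Pcdhac1 and Pcdhac2 -0.41 and -0.26. On that scale 0 members had a called fall, and Pcdhga12 (-1.46) was past 2-fold with its value at E17.5 below the reference level. The share of all symbols called on that scale was not computed. Among the variable members the median change was 0.36 for alpha, 0.27 for beta and -0.44 for gamma, and on the scale of the marked symbols it was 0.88, 0.79 and 0.09. The olfactory receptors were also higher at PN15, with a median H3K27me3 of 7, 7, 6 and 10. The part of that shift in the changes of the variable members was not tested.

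**Figure D4:**
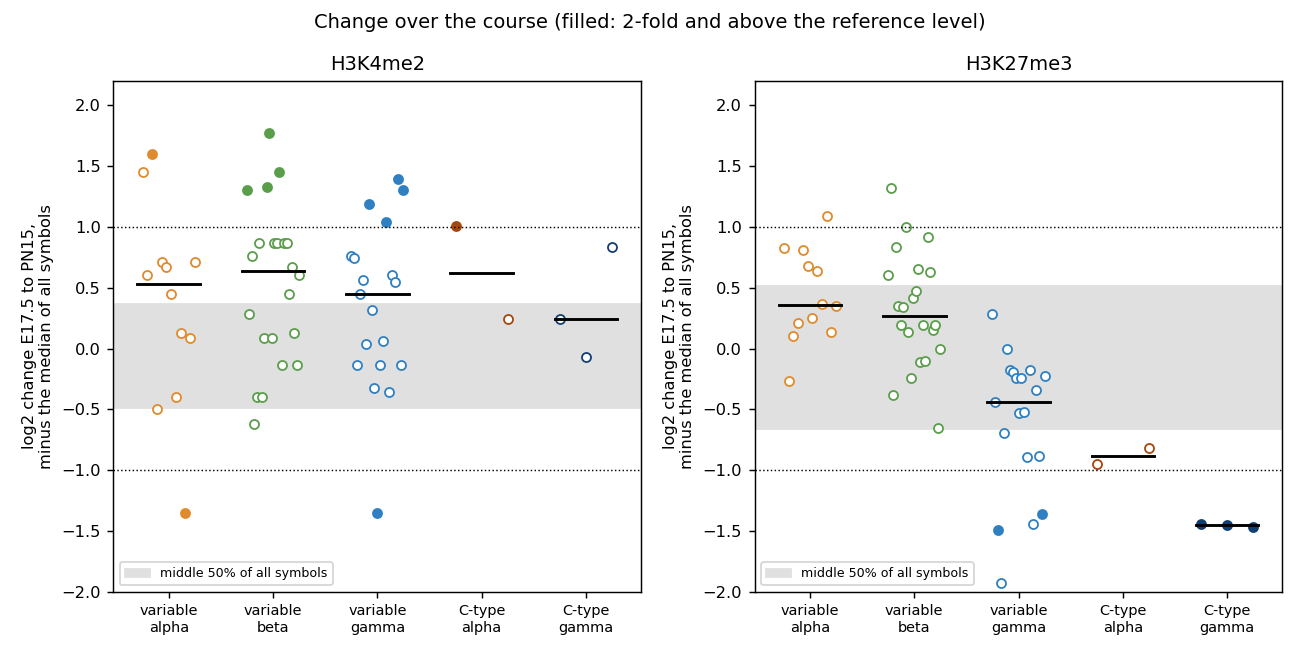
Log2 change of normalized occupancy from E17.5 to PN15 at each member, minus the median of all symbols, by class, for H3K4me2 (left) and H3K27me3 (right). Filled points reached 2-fold (dotted lines) with the higher value above the reference level, black lines are class medians, and the grey band holds the middle 50% of all symbols. The 3 C-type gamma isoforms lie together at -1.44 to -1.47 for H3K27me3.

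Between neighbouring stages the largest counts were for H3K4me2 from PN7 to PN15, with a rise at 17 members and a fall at 1, against 6.39 and 13.6% of all symbols. With a pseudocount of 5 the rises were 4 and the falls 0, a setting for which the share of all symbols was not computed. The median of all symbols moved up by 1 on the log2 scale over this step. The fall was at Pcdhgc3 (124 to 116), where the 2 counting intervals overlapped (a fall with intervals apart was called at 1.57% of all symbols), and without subtraction of the median of all symbols 0 members had a fall. Of the 17 rises 10 had intervals that were apart, as at Pcdhga1 (1 to 12) and Pcdhb21 (0 to 11), and of the 1281 symbols with a called rise 74.4% did (4.75% of all symbols). From PN1 to PN7 a rise was called at 3 members, Pcdhac2, Pcdhb2 and Pcdhgc3, and a fall at 5, against 13.6 and 6.11% of all symbols. Counting intervals were apart at 2 of the rises (Pcdhac2 and Pcdhgc3) and at 1 of the falls (Pcdha5), against 42.5 and 66.8% of the symbols so called (5.79 and 4.08% of all symbols), and Pcdhb2 went from 1 to 2. The median of all symbols moved by -0.50, and without subtraction of it 0 members had a rise. Low H3K4me2 at PN7 was shared by the olfactory receptors, whose median change from PN1 was -1.50, beside -1.08 for the members. The olfactory receptor median was 0 at PN7 and 2 at PN15, and the 17 rises of members over that step began at values of 0 to 3. The part of a return shared by low promoters in these rises was not tested. From E17.5 to PN1, H3K4me2 rose at 3 members and fell at 1 (2.4 and 0.873% of all symbols), with overlapping intervals at all 4 (calls with intervals apart were 0.289 and 0.509% of all symbols), and the median of all symbols moved by -0.42.

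For H3K27me3 from PN1 to PN7, all 22 gamma members had a negative change relative to all symbols, with a median of -0.47, beside medians of 0.30 for the alpha and 0.16 for the beta cluster. Falls passed the rule at Pcdhga12 (30 to 7) and Pcdhgc4 (44 to 14), against 2.04% of all symbols, with intervals apart at both members and at 1.95% of all symbols, and 0 members rose (2.21%). From E17.5 to PN1 and from PN7 to PN15 no member was called in either direction (0.688 and 0.224%, and 1.22 and 5.55%, for a rise and a fall of all symbols). The H3K27me3 libraries of PN7 and PN15 were single libraries like the rest, and the header of the PN7 one carries an unexplained letter b.

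The clusters lie on the plus strand of chromosome 18 in mm9, alpha at chr18:37089939-37347311, beta at chr18:37424652-37681073 and gamma at chr18:37833989-38001527. The annotation lists the beta genes one by one and the alpha and gamma transcripts under shared gene names, so single alpha and gamma starts were not assigned. Of the 21 gaps between beta starts 3 were under 5000 bp, so that those windows share reads, and the median gap was 7674 bp. Between the transcript starts listed under the shared names, 1 of 10 gaps in the alpha and 2 of 9 in the gamma cluster were under 5000 bp. Shared reads are thus not limited to the beta cluster, and changes at adjacent gamma members may not be separate. Within 500 bases of the start the beta promoters had few CpG sites, with a median observed to expected ratio of 0.40 (0.16 to 0.56, the highest at Pcdhb1), beside 0.60 for 19474 symbols, 0.66 for 12 other protocadherins and 0.13 for the olfactory receptors. Spearman correlations of this ratio with H3K4me2 over the 22 beta genes were weak in every library (0.10 to 0.16). Pcdhb20 is annotated as a pseudogene, and had an H3K4me2 of 3, 2, 1 and 7.

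Related genes of a cluster share stretches of sequence, and reads with several positions had been removed. Of the 32-base stretches within 2.5 kb of a beta start, a median of 90.4% occurred once in the genome (72.3 to 95.1%), beside 99.4% for the other protocadherins and 91.5% for the olfactory receptors. The lowest share was that of Pcdhb9, which also had the lowest occupancy of the beta genes. Over the whole clusters the share was 77.4% for alpha, 79.5% for beta and 93.5% for gamma. These 3 shares cover the full span of a cluster and not the windows around its starts, in which occupancy was counted. For beta the 2 measures differ (90.4 and 79.5%), and for alpha and gamma the share in the windows was not computed. The part of this in the lower occupancy of the alpha and beta clusters was not tested.

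The other protocadherins, which lie outside the clusters and have single promoters, had more of both marks. Of 12 with an entry, 11 were above the reference level for H3K4me2 in each library and 6, 6, 7 and 7 for H3K27me3. The largest H3K4me2 was at Pcdh10 (156, 108, 285 and 269) and Pcdh7 (136, 93, 220 and 122), and the largest H3K27me3 at Pcdh8 (294, 325, 196 and 132) and Pcdh1 (104, 154, 202 and 167). From E17.5 to PN15 their H3K27me3 passed the rule with a rise at 3 of 12 and a fall at 1, against 2.89 and 8.72% of all symbols.

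Genes next to the clusters had more H3K4me2 than most members, with a median of 51, 37, 35 and 61 over 15 neighbours. Zmat2, before the alpha cluster, had an H3K4me2 of 52, 36, 16 and 50 and Taf7, a subunit of the general factor TFIID between the beta and gamma clusters, 51, 37, 16 and 60. Slc25a2, beside Taf7, was as low as the beta genes (4, 4, 0 and 6). Hdac3, a histone deacetylase after the gamma cluster, had an H3K4me2 of 78, 53, 65 and 111, and its H3K27me3 of 24, 18, 9 and 10 fell by the rule from E17.5 to PN15 (-1.18). Cd14 (-1.31) and Rell2 (-1.13) had a called fall of H3K27me3 as well, which makes 3 of 15 neighbours against 8.72% of all symbols. Distances between the starts of the neighbours were not computed, and windows of adjacent genes may share reads. The 3 falls may therefore not be separate signals. Ik and Ndufa2, for example, had equal H3K27me3 changes over every step. Of the 15 neighbours 13, 13, 14 and 14 were above the reference level for H3K4me2, and 3, 2, 2 and 1 for H3K27me3.

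Of the genes that act on the clusters, 18 of 18 regulators and 9 of 9 signalling partners were above the reference level for H3K4me2 in every library, as were 66.9% of all symbols. At the histone methyltransferase gene Setdb1 the values were 47, 28, 3 and 68, with a called fall from PN1 to PN7 (-2.36) and a called rise from PN7 to PN15 (3.11). Ctcf, whose protein ties cluster promoters to their enhancers, had 69, 69, 41 and 98, Smchd1, a silencing factor of the clusters, 71, 32, 45 and 96, and Dnmt3b, which methylates variable promoters, 82, 46, 72 and 84. From E17.5 to PN15, H3K4me2 rose by the rule at the cohesin subunit gene Stag2 (42 to 102) and at the methyltransferase gene Dnmt3a (34 to 84), and fell at Ptk2b (55 to 18), a kinase bound by the protocadherin constant part. These 2 rises and 1 fall among 27 genes stand against 3.26 and 8.84% of all symbols. H3K27me3 was above the reference level at 3, 3, 2 and 1 of the regulators and at 1 of the partners in each library, and fell from E17.5 to PN15 at Wiz (58 to 23). Of all symbols 24.3, 24.8, 24.3 and 19.3% were above that level, and 8.72% had a called fall.

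The patterns most like each cluster's mean over the 8 libraries were found by Pearson correlation. The C-type isoforms weigh on 2 of these means: at E17.5 the alpha mean was 26.6 for H3K27me3 beside a variable alpha median of 10.5, and the gamma mean was 14.6 for H3K4me2 beside a variable gamma median of 7. The genes were Olfr18, Acer1 and Tnfrsf8 for alpha (0.99 each), Chit1, Olfr429 and Gramd2 for beta (0.99, 0.99 and 0.99), and Tmem215, Prr19 and Accn3 for gamma (0.98, 0.96 and 0.95). Tmem215 had an H3K27me3 of 43, 48, 24 and 21 beside a gamma mean of 21.5, 22.0, 12.6 and 12.5. The 8 points come from 2 marks of different level, and nothing about a shared control is drawn from these correlations.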

How the data were processed

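ChIP-Seq of H3K4me2 and H3K27me3 was done by the authors on micrococcal nuclease digested chromatin of whole retinas. The authors mapped reads with Bowtie 0.12.4 to mm9 and removed reads with several positions. The deposited values are scores, namely reads within 2.5 kb of each RefSeq TSS, which the authors normalized to library size and rounded. The table holds 25152 entries of 20045 symbols. Of 10 samples, 8 have a column here. Library totals are not stated in the table.

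The members and the gene lists were chosen with earlier results of these data known. For symbols with several entries the one with the largest sum was used. No count model or test was used. The pseudocount was 1. The read value was taken from the step that best gave the frequencies of the rounded values, where its deviance was below 0.7 of that of a step of 1. Steps were tested on simulated data. Coordinates and CpG sites come from GENCODE vM1 on mm9, and order along the clusters from RefSeq. Genes were named by a rule: C-type isoforms, Pcdhb1, the largest and smallest sums of each cluster and mark, called changes from E17.5 to PN15, listed neighbours, regulators and partners, and the 3 symbols most like each cluster's mean. Other genes given as examples were chosen after their values were seen. Alternatives were other reference levels, a pseudocount of 5, no centring, no filter, another scaling and 1.5-fold calls. Python 3.11.15, numpy 2.4.6, pandas 2.3.3, scipy 1.17.1 and matplotlib 3.10.9 were used.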

Additional observations from a re-analysis of the deposited data

How the results depend on the processing

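Of 160 alternatives of the totals over the members, 92 stayed within 1.5 times the count or within the spread. The mean of entries is not counted among them, since each member has 1 entry. Counts under the alternatives are of members only. Shares of all symbols were not computed for them, so they do not show whether the members differ from all symbols. Some directions turned. The median H3K27me3 change of the variable gamma members from E17.5 to PN15 was -0.44 and became 0.09 when scaled on the marked symbols, and that of the C-type gamma isoforms from PN7 to PN15 went from -0.55 to 0.03. With no centring, H3K4me2 from E17.5 to PN1 went from 0.15 to -0.26 for the variable gamma members and from 0.40 to -0.01 for the C-type alpha isoforms, and from PN7 to PN15 from -0.49 to 0.51 and from -0.43 to 0.57 for the C-type alpha and gamma isoforms. Scaled on the marked symbols, that of the C-type gamma isoforms from E17.5 to PN1 went from -0.05 to 0.07. The causes of the differences were not tested beyond the construction of each alternative.

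At the 99th percentile of the olfactory receptors, members above the level were 17 and 7 for H3K4me2 at E17.5 and PN1, 5, 2 and 2 for H3K27me3 at E17.5, PN1 and PN7, and 5, 2 and 2 for both marks. Calls were then 0 falls of H3K4me2 from E17.5 to PN15, 2 falls from PN1 to PN7, 11 rises from PN7 to PN15, and 3 and 0 falls of H3K27me3 from E17.5 to PN15 and PN1 to PN7. With 298 vomeronasal receptors as the reference, 42 members were above it for H3K4me2 at PN7, 20, 22, 17 and 8 for H3K27me3, and 16 and 7 for both marks at PN7 and PN15, and H3K27me3 had 1 fall from E17.5 to PN1 and 1 rise and 1 fall from PN7 to PN15.

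With a pseudocount of 5, H3K4me2 had 1 rise and 0 falls from E17.5 to PN1, 1 fall from PN1 to PN7, 4 rises and 0 falls from PN7 to PN15, and 2 rises and 0 falls from E17.5 to PN15, and its median changes were -0.37 from PN1 to PN7 and 0.32 from PN7 to PN15. With no centring, H3K4me2 had 1 rise and 2 falls from E17.5 to PN1, 0 rises from PN1 to PN7 and 0 falls from PN7 to PN15, with median changes of 0.00, -1.58 and 2.06, and that of H3K27me3 from PN1 to PN7 was -0.29. With no filter on low values, H3K4me2 had 11 rises from E17.5 to PN1, 31 falls from PN1 to PN7 and 32 rises from PN7 to PN15, and H3K27me3 had 3 falls from E17.5 to PN1, 4 falls from PN1 to PN7, 11 rises and 1 fall from PN7 to PN15, and 3 rises from E17.5 to PN15.

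Scaled on the marked symbols, H3K4me2 had 6 rises from E17.5 to PN1, 1 rise from PN1 to PN7 and 0 falls from PN7 to PN15, with median changes of -1.57 and 1.41 over the last 2 steps. H3K27me3 then had 1 rise from PN7 to PN15 and 1 rise and 0 falls from E17.5 to PN15, with median changes of 0.99 and 0.51. At 1.5-fold, H3K4me2 had 7 rises and 2 falls from E17.5 to PN1, 2 falls from PN7 to PN15 and 19 rises from E17.5 to PN15, and H3K27me3 had 2 rises and 1 fall from E17.5 to PN1, 6 falls from PN1 to PN7, 3 falls from PN7 to PN15, and 1 rise and 9 falls from E17.5 to PN15. No paired analysis was possible because each mark and stage has 1 library.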
